A study of Mus musculus with 7 samples.

Results

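Tmem176a and Tmem176b are neighbouring genes on mouse chromosome 6 that encode related membrane proteins, and both read lower in the nucleus pulposus of mice without the lactate exporter MCT4. The pair is 2 of the 19505 named genes on the array, and each gene had 1 feature. The pair was chosen by its measured values, namely the lower level in MCT4KO, so the difference between genotypes is described below without a test.

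The study asked how loss of MCT4, the product of Slc16a3, alters RNA in nucleus pulposus, the soft centre of a spinal disc. MCT4 is a plasma membrane carrier through which glycolytic cells release lactate with a proton, and nucleus pulposus cells live on glycolysis in a tissue with little blood supply. RNA was measured in 3 MCT4KO mice aged 14 months and 4 wild-type (WT) mice aged 13 months, with 1 Affymetrix array per animal. Tissue from the discs of an animal was pooled, so each array is a separate animal.

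MCT4KO mice are global knockouts, in which the gene is lost in the whole body and not in the disc alone. Per the labels, the animals came from heterozygous parents whose line had been backcrossed to C57Bl/6N for 10 generations, and no group received a treatment. The sample labels name the strain C57BL/6 for both genotypes, whereas the design text puts MCT4KO on C57Bl/6N and WT on C57Bl/6. Age and genotype cannot be told apart, since the MCT4KO animals were all older. If the design text is right, strain and genotype cannot be told apart either. The sources used here do not state their sex.

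The targeted gene followed the labels. Slc16a3 read 5.02, 4.98 and 4.47 in the MCT4KO animals, against 13.55, 13.35, 13.61 and 13.40 in the WT animals, on the deposited log2 scale. Every MCT4KO value lay below the median of the negative control features of its own array, so Slc16a3 was at background there and at least 179.9-fold higher in WT (limma adjusted p = 6.7e-09, and 0.0286 in an exact two-sided permutation test over 35 arrangements, the smallest it allows). The tissue also followed its label. The keratin genes Krt19 and Krt8 and the carbonic anhydrase gene Car3, which mark nucleus pulposus, all read above 16.5 on every array of both genotypes, and the mean over 17 nucleus pulposus markers was 12.90 to 13.09 in MCT4KO and 12.72 to 12.89 in WT. Of all named genes, 115 passed an adjusted p of 0.05 (0.590%), of which 92 were lower and 23 higher in MCT4KO, or 47 and 22 after quantile normalization.

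TMEM176A and TMEM176B belong to the wider MS4A group of proteins, which cross the membrane several times and have short ends in the cytoplasm. In mice they have been described as cation channels of endosomes, phagosomes and the trans-Golgi region. They are best known in dendritic cells, macrophages and lymphocytes that use RORgammat, where TMEM176B has been tied to the ion balance of phagosomes, to presentation of antigen on MHC class II and to restraint of the NLRP3 inflammasome. A role in the disc is not part of that background.

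The genes stand head to head, on opposite strands, and share the DNA between their start sites. The promoter windows from RefSeq (GRCm38.p6) are shown because both genes read lower and the same bases precede both. The Tmem176a window is chr6:48841233-48841532 on the plus strand, and the Tmem176b window is chr6:48841325-48841624 on the minus strand. Each is written 5′ to 3′ on the strand of its gene, with 250 bases before the start and 50 bases from it, and the 110 bases in capitals run from one gene's start to the other's, both starts included.
Tmem176a: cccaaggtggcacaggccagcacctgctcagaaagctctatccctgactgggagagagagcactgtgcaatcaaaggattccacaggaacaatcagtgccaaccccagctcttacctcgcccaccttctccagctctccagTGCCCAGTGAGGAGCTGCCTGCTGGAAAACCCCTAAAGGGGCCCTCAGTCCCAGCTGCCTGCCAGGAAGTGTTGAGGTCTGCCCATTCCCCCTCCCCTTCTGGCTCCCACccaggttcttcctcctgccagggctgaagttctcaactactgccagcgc
Tmem176b: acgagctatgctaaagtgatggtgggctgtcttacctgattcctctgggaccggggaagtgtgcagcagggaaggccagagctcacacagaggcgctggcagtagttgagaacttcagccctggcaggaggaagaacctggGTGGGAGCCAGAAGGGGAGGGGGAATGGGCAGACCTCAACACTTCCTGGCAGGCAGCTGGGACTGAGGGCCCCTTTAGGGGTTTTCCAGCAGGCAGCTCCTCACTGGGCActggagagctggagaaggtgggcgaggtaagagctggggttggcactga

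The start of Tmem176a is at base 48841483 and that of Tmem176b at base 48841374, which is 109 bases apart, and the printed windows share 208 bases. These windows were the closest of 2 listed for Tmem176a and 3 listed for Tmem176b. The windows were richer in G and C than most, at 59.7% for Tmem176a and 60.3% for Tmem176b, against a median of 52.7% over 32851 windows of 27025 genes. In the RefSeq gene table the span of Tmem176b also covers Tmem176a. The sources used here do not place the array's probes, so which transcripts of each gene a feature reads is unknown.

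Of 10 short motifs searched on both strands, 2 matched, each at 1 place between the starts. The letters CAGCTG, an E-box read by basic helix-loop-helix factors, occur in 16.3% of all windows. The letters AGGAAGT, a form of the site for ETS factors, occur in 9.35% of all windows. TATAAA (13.6% of windows), CCAAT (37.4%), GGGCGG (35.7%), CACGTG (7.15%), ACGTG (19.6%), AGGTCA (16.3%), TGANTCA (7.81%) and TAATTA (5.29%) had no match. ACGTG is a form of the core of the hypoxia response element and lies within CACGTG. A match shows only that the letters are present, and a missing match only that these letters are not in these windows.

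Tmem176b, the brighter feature of the pair, read 9.02, 9.0 and 8.68 in the MCT4KO animals, against 12.57, 11.58, 11.07 and 11.45 in the WT animals. Every MCT4KO animal lay below every WT animal, which held for 6.37% of all genes, and a gap of 2.06 separated the lowest WT animal from the highest MCT4KO animal. The means were 8.90 ± 0.187 in MCT4KO (SD, n = 3) and 11.67 ± 0.640 in WT (SD, n = 4), a difference of -2.77 on the log2 scale with a standard error of 0.338, or 6.81-fold lower in MCT4KO. The MCT4KO animals were closer together, over a range of 0.33, than the WT animals, over 1.5. On each MCT4KO array Tmem176b stood above 89.6% to 91.2% of the 5222 negative control features, and on each WT array above 97.5% to 98.5%. It thus read above the control median in both genotypes, though some control features read higher on every array.

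Tmem176a read 5.65, 5.44 and 6.11 in the MCT4KO animals, against 8.28, 7.13, 7.36 and 7.75 in the WT animals. The groups did not overlap here either, with a gap of 1.01. The means were 5.73 ± 0.344 in MCT4KO (SD, n = 3) and 7.63 ± 0.503 in WT (SD, n = 4), a difference of -1.89 with a standard error of 0.32. The control medians of the MCT4KO arrays were 5.99, 5.96 and 6.00, so only MCT4KO 3 read above its control median, by 0.11, and MCT4KO 1 and MCT4KO 2 read below theirs. The size of the decrease is therefore known only as a bound: with those values raised to the control median, the difference was -1.61, or at least 3.04-fold lower. Tmem176a stood above 39.0% to 52.6% of negative controls on the MCT4KO arrays and above 71.7% to 87.6% on the WT arrays.

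Among 10122 genes above the control median on all WT arrays, the decrease of Tmem176b was the 6th in size and that of Tmem176a the 26th. Because the pair was picked for this decrease, these ranks describe the choice. In whole tissue, fewer cells of a type and less RNA per cell cannot be told apart.

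**Figure D1:**
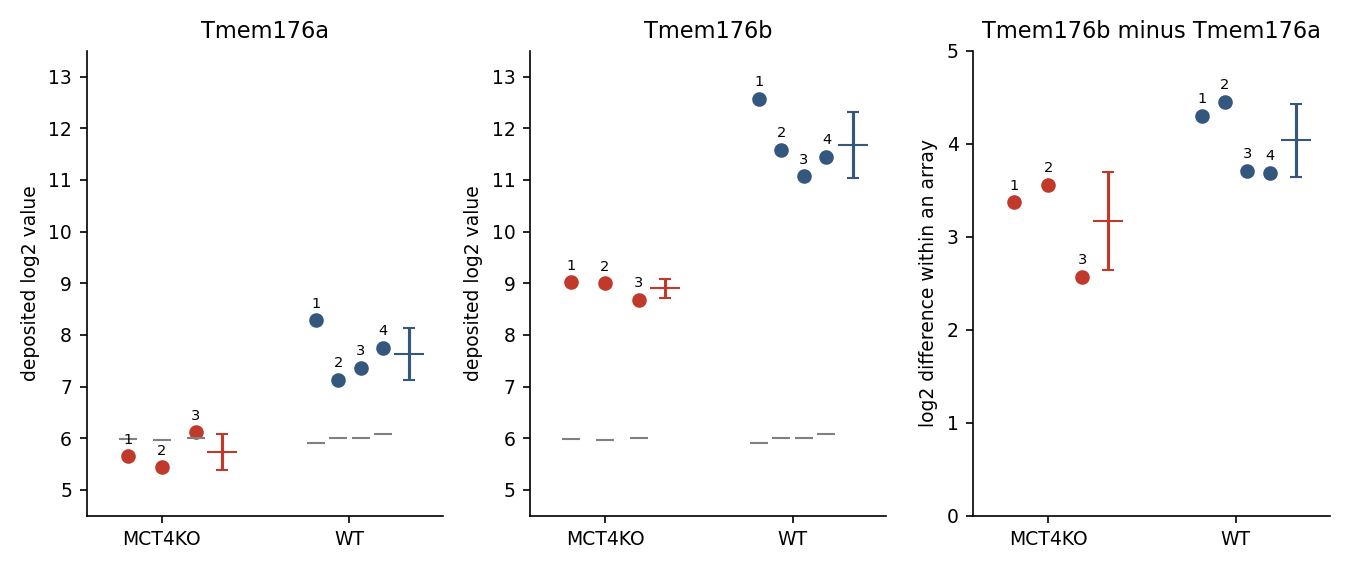
Deposited log2 value of Tmem176a and Tmem176b in each animal, and their difference in the third panel, with MCT4KO on the left and WT on the right of each panel. Points are animals with their numbers, bars beside them are mean ± SD, and grey ticks mark each array's negative control median. All MCT4KO points lie below all WT points for both genes, and for Tmem176a they lie around the grey ticks.

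Whether the genes moved together from animal to animal was examined on each array, where any array-wide scaling cancels. The difference Tmem176b minus Tmem176a was 3.37, 3.56 and 2.57 in the MCT4KO animals, against 4.30, 4.45, 3.71 and 3.69 in the WT animals. It averaged 3.17 ± 0.523 in MCT4KO (SD, n = 3) and 4.04 ± 0.393 in WT (SD, n = 4), a change of -0.87 on the log2 scale (standard error 0.360), with a gap of 0.14 between the groups. Tmem176a was near background in MCT4KO, which bounds its measured decrease, so these values cannot say which gene was the more reduced. The probes of the 2 genes differ, so the size of this difference within an animal carries no meaning and only its variation between animals is read. With values raised to the control median, the difference was 3.02, 3.04 and 2.57 in the MCT4KO animals, a change of -1.16. Without MCT4KO 3, the animal with the highest Tmem176a and the lowest Tmem176b of its genotype, the change was -0.58, and without WT 1 and WT 2 it was -0.54.

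Within WT the genes had the highest animal in common, whereas the lowest animal differed. In MCT4KO, where Tmem176a was near background, the measured order differed but cannot be read. WT 1 was the highest WT animal for both genes, 0.65 above the WT mean for Tmem176a and 0.90 above it for Tmem176b. The lowest WT animal differed, being WT 2 for Tmem176a (-0.50) and WT 3 for Tmem176b (-0.59). In MCT4KO, animal 3 was the highest for Tmem176a (0.38) and the lowest for Tmem176b (-0.22). MCT4KO 1 and MCT4KO 2 lay at -0.08 and -0.29 for Tmem176a, and at 0.12 and 0.1 for Tmem176b. With values raised to the control median, Tmem176a spanned only 0.15 over the MCT4KO animals. No correlation is given, because the genotypes form separate clusters and each has fewer than 6 animals.

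The likeness of the profiles was also measured as a distance. The root mean square distance over the 7 arrays was 0.687 after each gene was centred on its WT mean, and 0.380 after each was centred within genotype. Predicted genes, Rik clones and small RNAs were left out of the comparison. Among the 9799 remaining genes above the control median in all WT animals, Tmem176a was the 13th nearest to Tmem176b in the first measure and the 1382nd nearest in the second. Starting from Tmem176a, Tmem176b was the 100th nearest and the 3202nd nearest. The first distance holds the genotype difference by which the pair was chosen, and the second holds only the variation within a genotype. Both used the values as deposited, so the spread of Tmem176a near background in MCT4KO enters them.

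The profiles nearest to the mean of the pair, with genes centred on their WT mean, were those of Serpina1b, Gabrb2, Dmrta1, Mlana and Lzts3, at distances of 0.264, 0.340, 0.417, 0.464 and 0.471 among 9798 genes. Serpina1b encodes a serine protease inhibitor of the alpha-1-antitrypsin type. It read 6.74, 6.92 and 7.23 in the MCT4KO animals, against 10.36, 8.69, 8.86 and 8.77 in the WT animals. Mice carry near-identical Serpina1 copies, so which copy the feature reads is uncertain.

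Gabrb2, which encodes a subunit of the GABA-A receptor, read 9.04, 8.79 and 9.57 in the MCT4KO animals, against 12.83, 11.73, 11.20 and 11.67 in the WT animals. Like the pair, it was highest in WT 1. Dmrta1, a gene of the DMRT family of DNA-binding proteins, read 9.42, 10.06 and 10.19 in the MCT4KO animals, against 12.70, 11.40, 11.80 and 11.36 in the WT animals. Mlana, which encodes a melanosome protein, read 6.74 to 7.10 in MCT4KO and 8.43 to 9.19 in WT. Lzts3, a leucine zipper gene, read 6.89 to 8.26 in MCT4KO and 9.23 to 10.17 in WT. These 5 genes were found through their likeness to a pair chosen for its decrease, so their own differences are not tested here.

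With genes centred within genotype, the nearest were Slc30a2, Dapp1, Gpx3, H4c3 and Dctpp1, at distances of 0.100 to 0.125. All 5 were highest in WT 1, as the pair was. Gpx3, which encodes a secreted glutathione peroxidase, read 13.86, 13.53 and 13.94 in the MCT4KO animals, against 15.39, 14.52, 14.34 and 14.52 in the WT animals. The zinc transporter gene Slc30a2 read 5.72 to 5.94 in MCT4KO, at background, and 6.00 to 7.04 in WT. Dapp1, which encodes an adaptor of lymphocyte signalling, and the histone gene H4c3 differed by -0.29 and -0.81 between MCT4KO and WT, and Dctpp1, which encodes a nucleotide pyrophosphatase, by 0.11. The measure ignores the genotype difference, so genes that share the WT 1 peak enter whatever they do between genotypes.

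**Figure D2:**
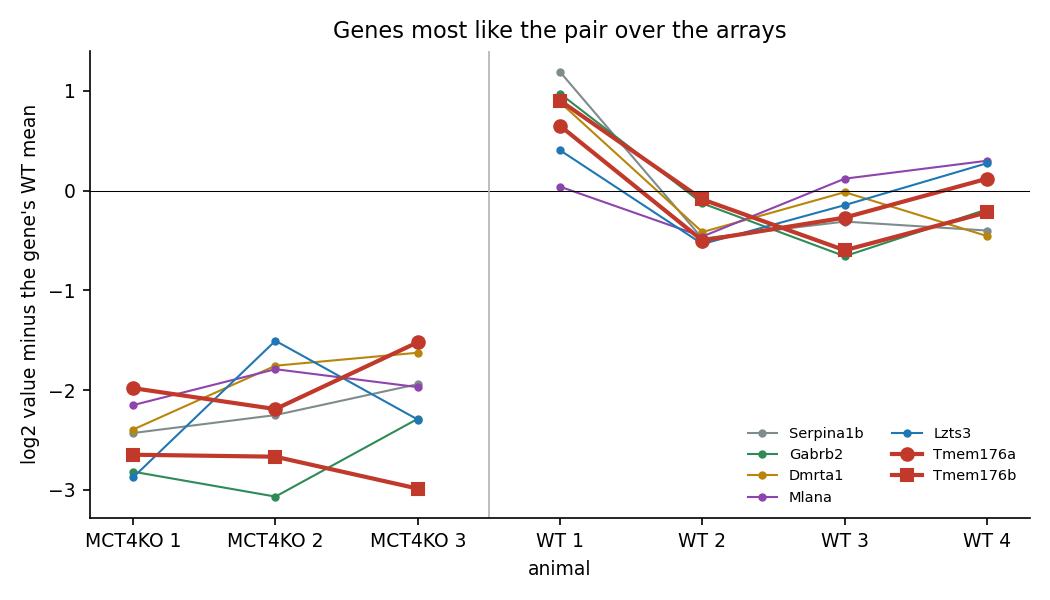
Log2 value minus the gene's WT mean for Tmem176a, Tmem176b and the 5 genes nearest to the pair, with the 3 MCT4KO animals on the left and the 4 WT animals on the right. Lines only join the points of a gene within a genotype. Serpina1b, Gabrb2 and Dmrta1 share the peak of the pair in WT 1. Lzts3 is also highest there, but only slightly above WT 4, whereas Mlana is not.

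No gene around the pair passed the test. Of the 20 nearest measured genes on chromosome 6, 10 on each side in RefSeq order, 0 passed an adjusted p of 0.05 in limma, against 0.590% of all genes, and the smallest was 0.13. The differences from WT spanned -0.77 to 0.51 with a median of 0.09, and 13 were above and 7 below zero. In simulated data the fit called only 7.2% of genes changed by 0.5, so changes of that size could go uncalled here. At an unadjusted p of 0.05, 3 neighbours were higher (Zfp775, Gimap6 and Gimap7) and 1 was lower (Gpnmb), whereas 12.7% of all genes passed that threshold, 6.90% lower and 5.76% higher. The pair's own differences of -1.89 and -2.77 lie outside the neighbours' span, but the pair was chosen for its decrease, so this contrast describes the choice.

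On one side lies the Gimap cluster, whose genes encode GTP-binding proteins of lymphocytes, and 6 of its 8 measured members were at background in both genotypes. Gimap7 had the smallest adjusted p of any neighbour and read 5.26, 5.32 and 5.33 in the MCT4KO animals, against 4.88, 4.88, 4.78 and 4.63 in the WT animals, all below background. Gimap6 differed by 0.46 (adjusted p = 0.36), and Gimap1, Gimap5 and Gimap3, the nearest to the pair, by 0.17, -0.02 and 0.07. On the other side stand Aoc1, which encodes diamine oxidase, and its relatives Doxl1, Doxl2 and Svs1. They differed by -0.27, 0.10, -0.16 and 0.25, and all 4 were at background in both genotypes.

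Gpnmb, which encodes a membrane glycoprotein of macrophages and pigment cells, is the nearest neighbour with a high level. It read 12.09, 12.47 and 13.01 in the MCT4KO animals, against 13.01, 13.19, 13.33 and 13.23 in the WT animals, a log2 difference of -0.67 ± 0.206 (SE, limma adjusted p = 0.23). The groups met at 13.01. With so many neighbours at background, the stretch next to the pair gives few measured levels to set beside it.

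**Figure D3:**
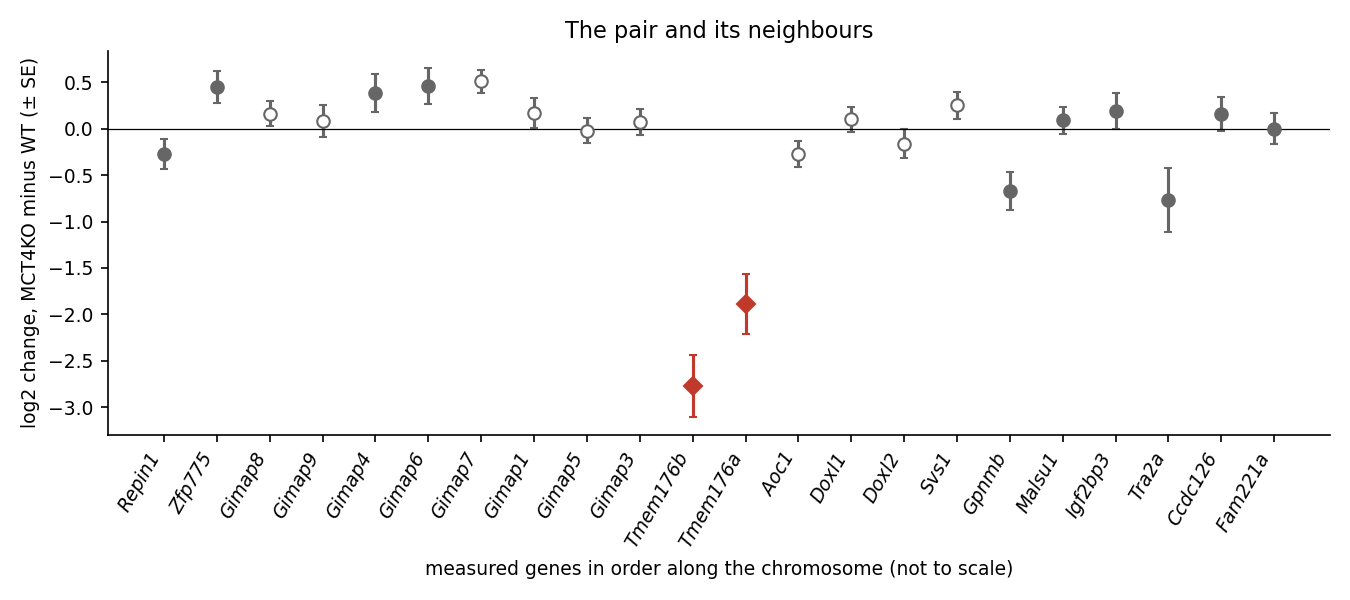
Log2 difference MCT4KO minus WT for the 10 measured genes on each side of the pair along chromosome 6, in RefSeq order. Filled points are measured genes, and open points are at background in both genotypes. Bars are standard errors, from limma for the neighbours and from the spread of animals within each group for the pair. The pair, chosen for its decrease, lies at -1.89 and -2.77, and all 20 neighbours lie between -0.77 and 0.51.

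Genes that start head to head were compared with the pair, by a distance chosen after the data were seen. Starts on opposite strands within 300 bases of each other gave 1282 pairs in the RefSeq promoter table, and both genes were measured in 524, of which 523 were other pairs. Among these, 0 pairs had both genes called by limma and 6 had 1 gene called. Both genes were below WT in every MCT4KO animal in 10 pairs, histone pairs such as H2ac15 and H2bc15 (-2.16 and -0.79) among them. With both genes at -1.5 or below there were 0 other pairs. Of all named genes taken singly, 0.590% were called, and 6.37% had every MCT4KO animal below every WT animal. The counts of pairs were not tested against these shares. The pair was chosen for its decrease, so its place among head-to-head pairs is a description.

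In those 6 pairs the called gene was lower in MCT4KO. Each lost its call under 10 or 11 of 16 alternatives, and the highest adjusted p of each was 0.16 to 0.24. The partner of H4bc24 (-1.51), the histone gene H2ac24, came nearest to a shared decrease, at -1.12 (limma adjusted p = 0.10). The other called genes were Chpf (-1.02), Cyb561d2 (-1.03), Ints7 (-0.99), Gtf3c1 (-0.99) and Ncdn (-1.01). Their partners Tmem198, Nprl2, Dtl, D430042O09Rik and AU040320 differed by -0.07, -0.46, -0.09, -0.11 and -0.48, none of them past the threshold. Signs, read from rounded differences, matched in 279 of the 523 pairs. A pair with a gene that rounded to no change counted as unmatched.

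**Figure D4:**
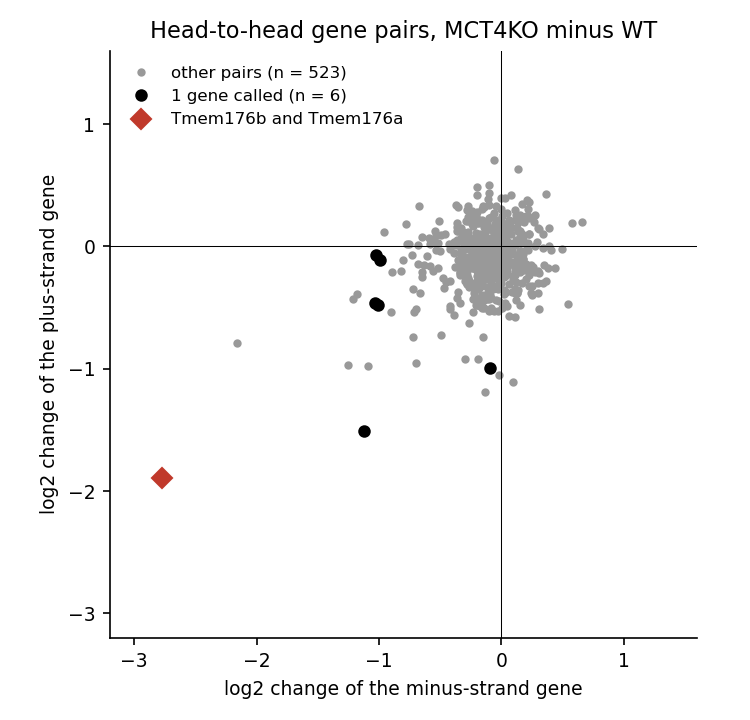
Log2 difference MCT4KO minus WT of the plus-strand gene against the minus-strand gene, for 524 head-to-head pairs with starts within 300 bases. Black points are the 6 pairs with 1 gene called. The Tmem176 pair, marked in red and chosen for its decrease, lies alone with both genes below -1.5.

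The relatives of the pair, the MS4A genes, gave no call. Of 17 measured relatives, 0 were called by limma and 0 had an unadjusted p under 0.05, against 0.590% and 12.7% of all genes. At background in both genotypes were 14, so most of the family was not measurably present. Their median difference was 0.11, against 0.02 over all named genes. Ms4a7, a macrophage relative, read 6.07, 6.09 and 6.05 in the MCT4KO animals, against 6.30, 5.53, 5.96 and 6.05 in the WT animals, so the groups overlapped. Ms4a4d was measured at 7.09 to 7.95 in MCT4KO and 6.66 to 7.53 in WT (difference 0.44, adjusted p = 0.51), and Ms4a3 was at background in both.

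Genes of the processes that TMEM176 proteins are known for were counted next. For every list from here on, the shares to set beside the counts are those over all genes. Called were 0.590%, and 12.7% had an unadjusted p under 0.05, 6.90% lower and 5.76% higher. Of 21 measured MHC class II presentation genes, 0 were called by limma and 2 had an unadjusted p under 0.05, both higher. The list had a median difference of -0.03, and 10 of its genes were at background in both genotypes. Cd80, which encodes a costimulatory ligand of antigen-presenting cells, read 12.11, 12.72 and 11.43 in the MCT4KO animals, against 10.89, 10.66, 10.91 and 10.54 in the WT animals. That is 1.34 ± 0.264 higher (SE, adjusted p = 0.062), just short of the threshold although the groups did not overlap, and over 16 alternatives its adjusted p was 0.044 to 0.25, past the threshold with an intensity trend and without MCT4KO 3 (1.67). H2-Ob, a subunit of the peptide-loading regulator H2-O, was at background in both.

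Of 18 NLRP3 inflammasome and interleukin 1 genes, 0 were called and 2 had an unadjusted p under 0.05, both higher, against 12.7% of all genes. The list had a median of 0.05, and 10 of its genes were at background in both genotypes. The cytosolic DNA sensor gene Aim2 was at background in both. Il1r1, the receptor of interleukin 1, read 11.62, 11.67 and 10.80 in the MCT4KO animals, against 10.50, 10.81, 10.90 and 10.77 in the WT animals (adjusted p = 0.29). MCT4KO 3 fell inside the WT range.

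The 25 endosome and phagosome genes included oxidase, chloride and cation channel, ion exchanger and Rab genes. Of these, 0 were called by limma and 1 was lower at an unadjusted p under 0.05, against 12.7% of all genes in either direction. Their median was -0.04. Cybb, the catalytic subunit of the phagocyte oxidase, read 6.57, 5.92 and 6.09 in the MCT4KO animals, against 7.94, 9.40, 6.66 and 6.32 in the WT animals (adjusted p = 0.39). Its WT spread came from WT 1 and WT 2. The endosomal sodium and proton exchanger gene Slc9a9 differed by -0.38 (adjusted p = 0.45). Of 13 RORgammat and type 17 genes, 0 were called, with a median of 0.05. At an unadjusted p under 0.05, 1 was lower and 2 were higher, against 12.7% of all genes in either direction. Il1r1, already counted in the inflammasome list, was 1 of the 2 higher. The type 17 transcription factor gene Irf4 and the interleukin 23 receptor gene Il23r were at background in both genotypes.

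**Figure D5:**
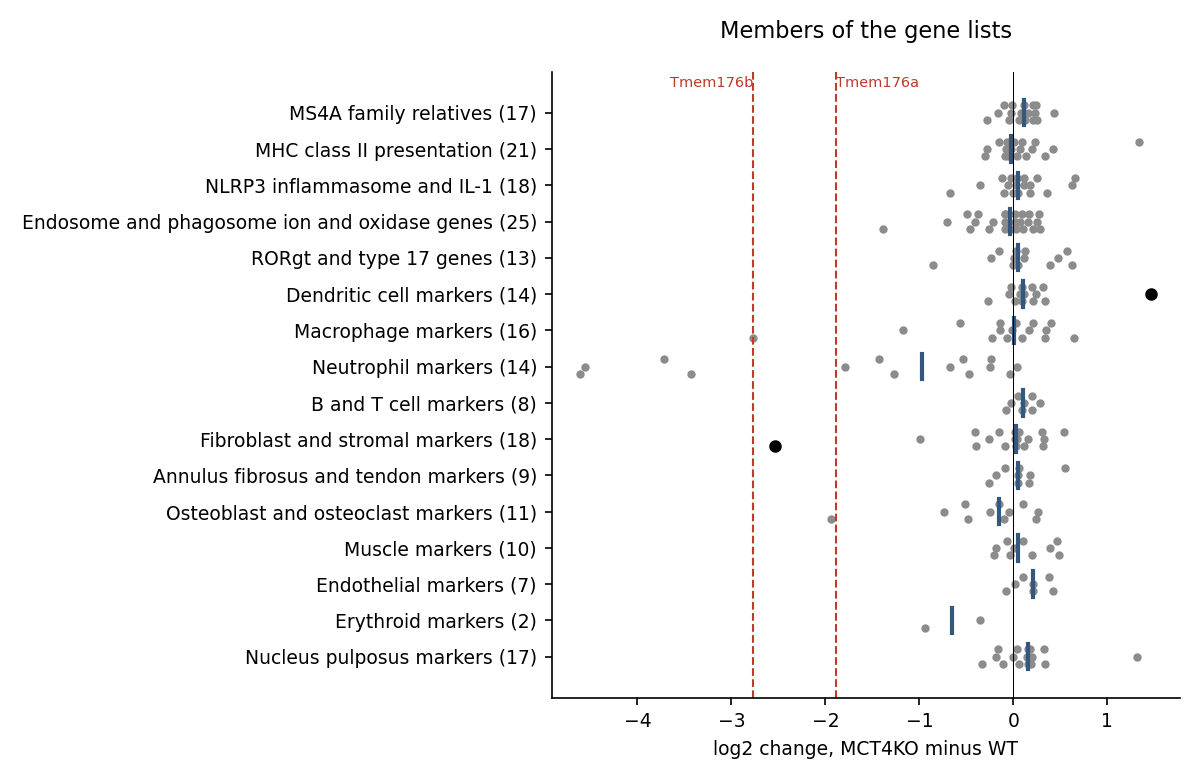
Log2 difference MCT4KO minus WT of every measured member of 16 gene lists, 1 line per list, with the list median as a blue bar and the called members Fscn1 and Prrx1 in black. Tmem176a and Tmem176b are marked for scale at -1.89 and -2.77. List medians lie near zero apart from those of the neutrophil and erythroid lists, at -0.97 and -0.65.

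The dissection could hold other cells in which the pair is known to be expressed, so their markers were read. Defining dendritic cell markers were not measurably present: Itgax, Flt3 and Zbtb46 were at background on every array of both genotypes, as were 9 of 14 markers in all. The list mean was 5.51 to 5.70 in MCT4KO and 5.37 to 5.51 in WT. Only Fscn1, which encodes an actin-bundling protein of mature dendritic cells and many other motile cells, was called, at 6.30, 5.49 and 5.30 in the MCT4KO animals against 4.47, 4.23, 4.25 and 3.97 in the WT animals (limma adjusted p = 0.034, and 0.019 to 0.92 over 16 alternatives, 10 of which lost the call, among them leaving out any 1 animal). Only MCT4KO 1 read above its control median, so no fold is given.

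Macrophage markers gave no call among 16 measured genes, against 0.590% of all genes. At an unadjusted p of 0.05, 2 were lower and 2 higher, against 6.90% and 5.76% of all genes. The median was 0.01, and list means were 5.63 to 5.84 in MCT4KO and 5.68 to 6.27 in WT. Lyz2, the lysozyme gene of macrophages and neutrophils, read 5.17, 4.74 and 4.45 in the MCT4KO animals, at background, against 8.49, 9.92, 6.30 and 5.54 in the WT animals. Its WT mean was at least 2.98-fold higher, short of the threshold (adjusted p = 0.24). Lyz2 was highest in WT 2, and in WT 4 it lay below that array's control median of 6.08. Without WT 1 and WT 2 its difference went from -2.77 to -1.13. Itgam, an integrin gene of myeloid cells, and Mpeg1, a perforin-like gene of macrophages, both named after their values were seen, differed by -1.18 and -0.57 (adjusted p = 0.29 and 0.61). Fcgr1, a receptor gene for antibodies, differed by 0.65 (adjusted p = 0.24). Adgre1, which encodes the F4/80 antigen, was at background in both genotypes. Csf1r, the receptor of the macrophage growth factor, read 10.83, 11.17 and 11.40 in the MCT4KO animals, against 10.79, 10.88, 11.28 and 10.92 in the WT animals, and the groups overlapped (adjusted p = 0.73). B and T cell markers gave 0 calls among 8, and 0 with an unadjusted p under 0.05, with 5 at background in both, Cd3e among them.

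Neutrophil markers read lower in MCT4KO without a call and varied widely between WT animals. Of 14 measured, 0 were called and 4 were lower at an unadjusted p of 0.05, against 6.90% of all genes, with a median of -0.97, and 7 were at background in MCT4KO only. The list mean was 5.25 to 5.75 in MCT4KO, against 7.28, 9.09, 5.84 and 6.09 in WT 1 to WT 4. S100a8, a calcium-binding protein gene of neutrophils, read 5.56, 4.31 and 5.57 in the MCT4KO animals, against 10.41, 13.04, 7.71 and 7.86 in the WT animals (limma adjusted p = 0.12). The erythroid list, with 2 measured genes, had means of 6.67 to 6.76 in MCT4KO, against 7.26, 8.64, 6.87 and 6.68 in WT 1 to WT 4.

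Beside these, WT 2, with the highest neutrophil and erythroid means, was the lowest WT animal for Tmem176a. For Tmem176b the order of the WT animals was that of the neutrophil means except that WT 1 stood above WT 2. Leaving out WT 1 and WT 2, an alternative added after the data were seen, gave differences of -1.82 for Tmem176a and -2.36 for Tmem176b. The part of other cell types in the pair's difference was not tested.

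Stromal and skeletal markers gave 1 call. Of 18 fibroblast and stromal markers, 1 was called lower, Prrx1, a homeobox gene of mesenchyme, at 7.13, 8.29 and 6.86 in the MCT4KO animals against 10.10, 9.96, 9.90 and 9.91 in the WT animals (limma adjusted p = 0.014, and 0.0003 to 0.089 over 16 alternatives). At an unadjusted p of 0.05, 3 were lower and 1 was higher, against 6.90% and 5.76% of all genes. Among the 3 lower, the stromal cell gene Islr read 9.56, 9.71 and 8.98 in the MCT4KO animals, against 10.77, 10.63, 10.22 and 10.02 in the WT animals, with no overlap (adjusted p = 0.11). The list mean was 6.18 to 6.86 in MCT4KO and 6.55 to 6.77 in WT, so the groups overlapped, and Dpt was at background in both. Of 9 annulus fibrosus and tendon markers, 11 bone markers and 10 muscle markers, 0 were called, with 1 higher, 2 lower and 1 higher at an unadjusted p of 0.05. Ibsp, a bone matrix gene, read 8.11, 9.65 and 7.43 in the MCT4KO animals, against 10.95, 9.89, 9.75 and 10.74 in the WT animals (adjusted p = 0.14). Of 7 endothelial markers 0 were called and 6 were at background in both genotypes, and of 17 nucleus pulposus markers 0 were called, with a median of 0.15. Each of these 2 lists had 1 member higher at an unadjusted p of 0.05.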

How the data were processed

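Arrays of 3 MCT4KO and 4 WT nucleus pulposus samples were analysed. The authors deposited 1 log2 value per feature and array, and the submitters' processing notes name Affymetrix Expression Console 1.4.1. How background and normalization were handled is not stated in the sources. That the scale is log2 was read from the values, and the highest, 19.41, exceeds what a scanner reading gives, so folds are on the deposited scale. The values were used as deposited.

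Of 28846 features, 19572 carried 1 gene symbol and 0 carried several, and for 55 genes with several features the brightest was used, leaving 19505 genes, all matched to RefSeq (GRCm38.p6) by gene identifier. Background was the median of 5222 negative control features (5.99; 5.91 to 6.08 by array), and a group was at background where each array read at or below its own control median. Precision is set by the number of animals (median standard error of a log2 change 0.167), since arrays have no read depth.

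Differences were tested with limma 3.58.1 in R 4.3.3 (lmFit and eBayes, no covariate, two-sided, Benjamini-Hochberg over all genes, called at adjusted p under 0.05), checked on data with known answers. The members and gene lists were chosen with earlier results of these data known. Named genes were the pair, Slc16a3, the 5 nearest neighbours on each side, the 5 genes nearest to the pair by each distance, and in each list every called member and up to 2 with the smallest p, with defining markers. Genes whose names matched nothing in the annotation were not analysed here. The alternatives tried were a filter on dim genes, quantile normalization, median centring, feature averaging, an intensity trend, array weights, a replicate block, leaving out each animal, and, added after the data were seen, leaving out WT 1 and WT 2 together and raising all values to the control median.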

Additional observations from a re-analysis of the deposited data

Results flagged for a closer look

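Of 79 genes and differences examined in the WT group, 6 held an animal far from the other 3, its gap to the nearest being large against the group's range. Chance flags about 1 group in 20. WT 1 stood high in Serpina1b (10.36), Dapp1 (8.06), Gpx3 (15.39), H4c3 (10.83) and Nprl2 (8.27). The first 4 of these were named for a profile like that of Tmem176a and Tmem176b, which also read highest in WT 1, so their high WT 1 value follows from how they were found. WT 3 stood low in Thbs4 (5.33).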

How the results depend on the processing

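The difference between MCT4KO and WT kept its sign for both genes under 14 alternatives, at -2.08 to -1.61 for Tmem176a and -2.97 to -2.36 for Tmem176b, and Tmem176b minus Tmem176a at -1.16 to -0.54. Slc16a3 stayed called under 16 (-8.75 to -7.49), and the count of called neighbours stayed 0. The count of called genes, 115, was 69 after quantile normalization, 6 with the replicate block, 15 to 64 with 1 animal left out, 16 without WT 1 and WT 2 and 26 with values raised to the control median. Called list members, 2, were 0 with the block, 1 to 2 with 1 animal left out, 0 without WT 1 and WT 2 and 0 with raised values. The cause was not tested, though leaving out animals leaves fewer of them. Same-numbered animals' deviations correlated at -0.13, 0.02 and 0.05. These values show no pairing by number, but with so few animals they cannot exclude one. Of 75 genes tested singly over 16 alternatives, 1064 results kept their side of the threshold, 109 lost it, 3 passed it and 0 reversed. Signal near background limits Tmem176a in MCT4KO.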
